A study of Bos taurus with 8 samples.

Results

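Histone deacetylases remove acetyl groups from lysines of histones and other proteins, and act against the acetyltransferases that add them. Class I enzymes work mostly in the nucleus inside large corepressor complexes, where they help to silence genes, and HDAC1 and HDAC2 are well known for their roles in proliferation and lineage choice of embryonic stem cells. Class IIa enzymes have little catalytic activity of their own, bind transcription factors such as MEF2 and move between nucleus and cytoplasm when kinases phosphorylate them. Class IIb enzymes act largely in the cytoplasm, and HDAC11 is the sole member of class IV.

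The transcripts of 10 histone deacetylase genes were examined, chosen by name from the 32637 genes with values in the count table: HDAC1, HDAC2 and HDAC3 of class I, HDAC4, HDAC5, HDAC7 and HDAC9 of class IIa, HDAC6 and HDAC10 of class IIb, and HDAC11 of class IV. The table holds 11 genes of this name, and the remaining class I gene was not among those chosen and was not analysed here. All 10 passed the filter on low counts that left 15744 genes for testing.

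The libraries came from bovine embryonic stem cells (bESCs) of 4 female (XX) lines, A, C, D and E, derived from whole in vitro-produced embryos at the early or full blastocyst stage, with no statement of which line came from which. Each line was sequenced in 5% O2 on MEF, a layer of irradiated mouse embryonic fibroblasts, at passage 15 to 17, and in 5% O2 without feeders on vitronectin at passage 20 to 22, so that each condition had 4 libraries. Every culture had already been adapted to low oxygen and was kept in NBFR medium, which contains FGF2 and the WNT inhibitor IWR-1. The study's methods add Activin A for feeder-free culture, whereas the sample titles carry the same medium code in both conditions, so the matrix, the feeder cells, the passage number and possibly Activin A changed together and cannot be told apart. The methods also describe a removal of feeder reads, meant for the counts of cultures on MEF. That step cannot be told apart from the condition either. The paper also refers to sequencing batches and applied no additional batch correction. The batch of each library was not used here, and whether batches coincide with the conditions was not checked.

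Total counts were 44268717 to 54296425 on MEF and 49671478 to 102351560 in feeder-free conditions, where the library of line D was the deepest. The smallest count of any deacetylase was 307, for HDAC11 in line E on MEF. All 8 markers of pluripotent cells were detected in every library, and POU5F1 had 1725 to 2341 CPM, the count scaled to library size with TMM factors. Their summed level was 5455 to 6050 CPM on MEF and 4678 to 5299 CPM in feeder-free conditions, and these 2 ranges did not overlap. None of the 8 was called in the unpaired fit of edgeR, while 6 had an unadjusted p under 0.05 and 6 were lower without feeders in all 4 lines. Of all genes tested, 21.6 percent had such a p and 20.7 percent were lower in all 4 lines. OTX2, a factor of the primed state, was called lower in the paired fit, at -0.66 on the log2 scale and an edgeR adjusted p of 0.00495. SALL4, a zinc finger factor of stem cells, had an unpaired edgeR adjusted p of 0.0426 but a fold of 0.669, short of the threshold. The summed level of 15 fibroblast markers was 378 to 494 CPM on MEF and 207 to 1220 CPM in feeder-free conditions, where most of it was COL1A1, with lines C and D above their own MEF library and lines A and E below it. TWIST2 and FAP were at 0 in all 4 feeder-free libraries and at no more than 0.661 CPM on MEF. Of 13 fibroblast markers tested, 0 were called in the unpaired fit of edgeR, with 4 at an unadjusted p under 0.05, and 2 were called higher (COL3A1 and POSTN) and 2 lower (COL1A2 and PRRX1) in the paired one. The shares over all genes tested were 21.6 percent at that p, and 5.52 percent higher and 4.53 percent lower in the paired fit. Fibroblast marker levels on MEF stand after the removal of feeder reads that the methods describe. The part of the marker levels in the results was not tested, and in bulk RNA fewer cells with a transcript and less of it per cell cannot be told apart.

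No histone deacetylase passed both thresholds between feeder-free and MEF culture, a change of 1.5-fold or more and an adjusted p under 0.05, against 1.73 percent of all genes tested with edgeR's quasi-likelihood test, 0.724 percent higher and 1.00 percent lower. HDAC1 had 36 percent more and HDAC7 39 percent more signal in feeder-free conditions by the fitted fold change, and HDAC4 had 31 percent less. These 3 genes had an unadjusted p under 0.05, as did 21.6 percent of all genes tested. DESeq2, limma-voom and edgeR's likelihood ratio test also passed 0 of the 10 at both thresholds. Over all 15744 genes they passed 695, 79 and 448 as higher and 516, 150 and 389 as lower, in that order. The 95% intervals of the fold changes of all 10 genes lay between 0.544 and 1.85, so that a change of 2-fold or more lay outside each of them. Taking the line as a pairing term (replicate block), HDAC1 was higher and HDAC4 was lower at an adjusted p under 0.05, where 15.8 percent of genes tested stood at any fold change, 7.67 percent as higher and 8.12 percent as lower, and both stayed short of a 1.5-fold change. Again 0 of the 10 passed both thresholds, against 10 percent of genes tested (5.52 percent higher and 4.53 percent lower).

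**Figure D1:**
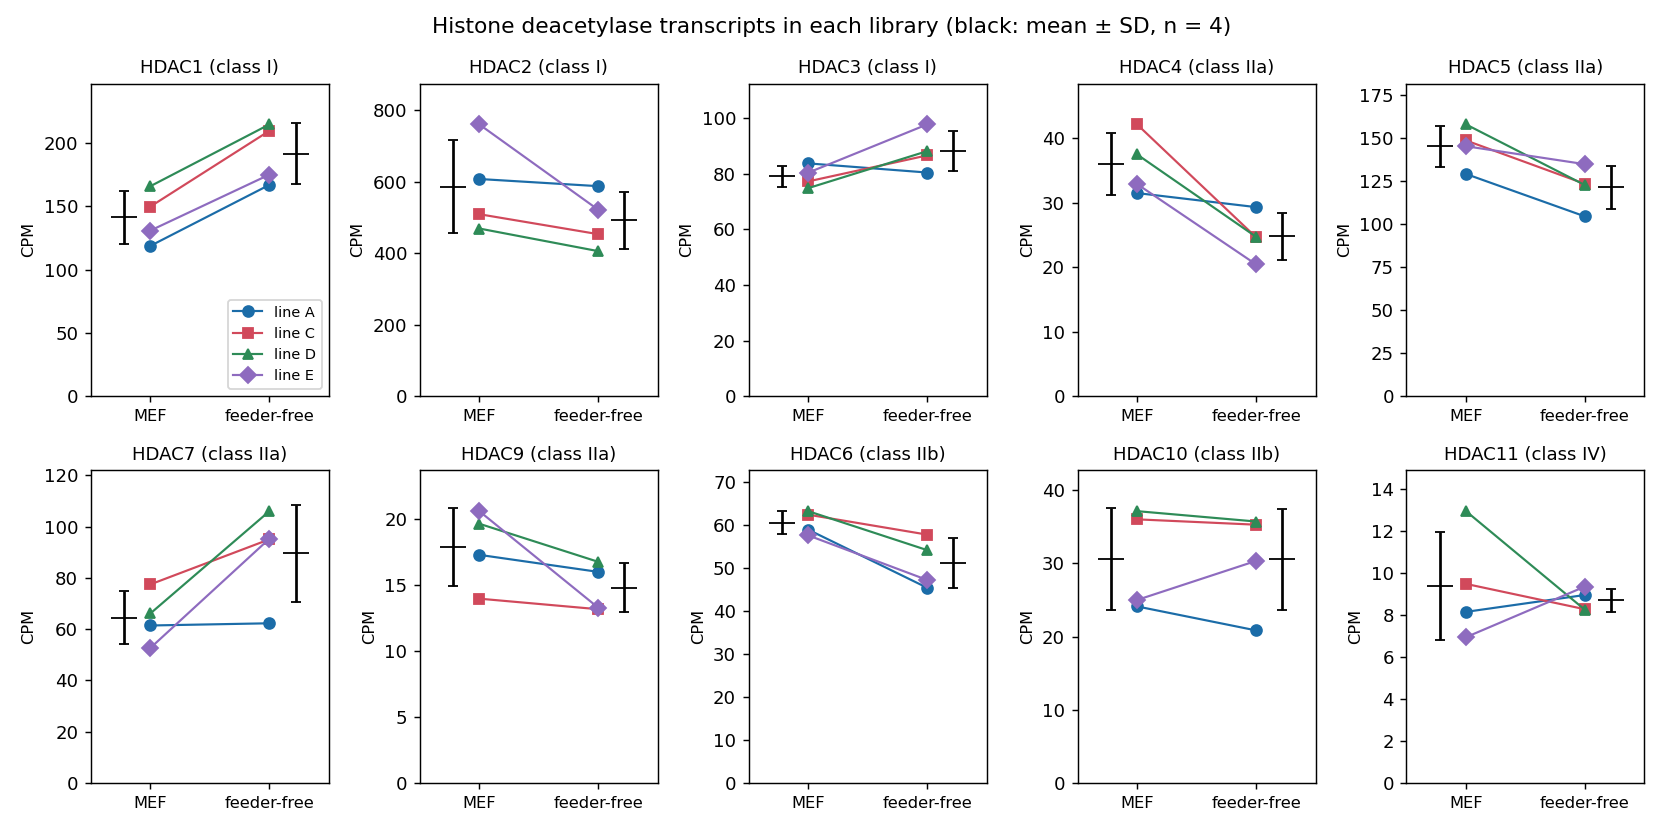
CPM (vertical axes, from 0) of the 10 histone deacetylases on MEF and in feeder-free conditions, with a line joining the 2 libraries of each bESC line and black bars for the mean ± SD (n = 4). The HDAC1 lines run upward in parallel in all 4 bESC lines, while for HDAC4 and HDAC7 line A is the nearest to level.

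In class I, HDAC1 had the most even difference between conditions. HDAC1, a catalytic subunit of the SIN3, NuRD, CoREST and MiDAC complexes, lies at 121225598 to 121257579 on chromosome 2 of the ARS-UCD2.0 build. On MEF it had 119, 149.9, 166 and 131 CPM in lines A, C, D and E, and in feeder-free conditions 167, 209.8, 215 and 175 CPM. The 4 feeder-free values lay above the 4 MEF values, a separation in that direction found in 6.21 percent of genes tested. The means were 141 ± 20.8 and 192 ± 24.1 CPM (SD, n = 4 each), a log2 fold change of 0.44 with a standard error (SE) of 0.14 and an adjusted p of 0.121 from edgeR. The log2 ratio within a line ran from 0.37 in line D to 0.49 in line A. The SD of these 4 ratios was 0.057, where the median over all genes tested was 0.33. The lines thus differed from their own MEF culture by a like amount. The difference in HDAC1 level between lines was not called (adjusted p = 0.156 from edgeR's test of the lines). Paired by line, the log2 fold change was 0.44 as well, with an SE of 0.098 and an edgeR adjusted p of 0.0175. Without line C or line D the adjusted p of that edgeR fit became 0.0865 and 0.0863.

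HDAC2, the close paralog of HDAC1 and its partner in the same complexes, leaned the other way. HDAC2 lies on chromosome 9 from 36449623 to 36484815. Its level on MEF was 608, 509, 469 and 760.3 CPM in lines A, C, D and E, and 588, 453, 406 and 521 CPM in feeder-free conditions. All 4 lines had less HDAC2 without feeders, by a log2 ratio of -0.05 in line A and -0.54 in line E, but the conditions overlapped. The fitted log2 fold change was -0.25, with an SE of 0.19 and an edgeR adjusted p of 0.477, and -0.24 in the paired fit (adjusted p = 0.168). Its 95% interval reached from a fold of 0.629 to 1.12.

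HDAC1 and HDAC2 were also compared within each library, where normalization cancels. This ratio was not among the planned comparisons. As HDAC1 was higher and HDAC2 lower in every line, its direction in each line follows from the values above. The ratio of HDAC2 to HDAC1 CPM was 5.11, 3.40, 2.83 and 5.81 in lines A, C, D and E on MEF, and 3.52, 2.16, 1.89 and 2.98 in feeder-free conditions. It was lower without feeders in every line, while the conditions overlapped, with feeder-free line A above lines C and D on MEF. The mean ratio was 4.29 ± 1.40 on MEF and 2.64 ± 0.748 without feeders (SD, n = 4 each). No test was made of this ratio, and as transcript lengths were not used here, it is a ratio of reads and not of molecules.

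HDAC3, the catalytic subunit of the NCoR complexes, was among the steadiest members. It lies on chromosome 7 from 52716398 to 52730098. Its level was 83.7, 77.2, 74.8 and 80.3 CPM in lines A, C, D and E on MEF, and in feeder-free conditions 80.4, 86.6, 88.1 and 97.7 CPM. Lines C, D and E had more and line A slightly less, and the conditions overlapped. The log2 fold change was 0.16, with an SE of 0.10 and an edgeR adjusted p of 0.42, with a 95% interval of the fold from 0.950 to 1.31.

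Within class IIa, HDAC4 and HDAC7 had opposite signs, and in both line A changed least. HDAC4, a corepressor of MEF2 that shuttles out of the nucleus on phosphorylation, lies on chromosome 3 from 118221446 to 118513129. On MEF it had 31.5, 42.1, 37.5 and 32.9 CPM in lines A, C, D and E, and in feeder-free conditions 29.3, 24.6, 24.7 and 20.4 CPM. The 4 feeder-free values lay below the 4 MEF values, as in 8.36 percent of genes tested, with line A the closest to its own MEF value. The means were 36.0 ± 4.82 and 24.8 ± 3.63 CPM (SD, n = 4 each), a log2 fold change of -0.54, with an SE of 0.15 and an edgeR adjusted p of 0.0839. The log2 ratio was -0.10 in line A, -0.77 in line C, -0.60 in line D and -0.69 in line E. Lines C, D and E were thus closer to each other than to line A. The SD of the 4 ratios was 0.30, near the median of 0.33 over all genes tested. Paired by line, the log2 fold change was -0.54 as well, with an SE of 0.14 and an edgeR adjusted p of 0.0297. Without line A that fit gave -0.69 and an adjusted p of 0.0159 from edgeR's test. This is past both thresholds, as were 733 of 15764 genes in the lower direction. Without line C, D or E the adjusted p was 0.142, 0.129 and 0.0781.

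HDAC7, known from endothelial cells and thymocytes and likewise a MEF2 corepressor, lies on chromosome 5 from 32462215 to 32499017, where it overlaps SLC48A1 in the annotation, so its counts are less certain. On MEF it had 61.5, 77.5, 66.2 and 52.7 CPM in lines A, C, D and E, and in feeder-free conditions 62.3, 95.1, 106 and 95.3 CPM. Lines C, D and E had more HDAC7 without feeders, whereas line A was nearly level and made the conditions overlap. The log2 ratio was 0.02 in line A, 0.30 in line C, 0.68 in line D and 0.86 in line E, so that line C lay nearer to line A. The SD of the log2 ratios of the 4 lines was 0.38, near the median of 0.33 over all genes tested. The log2 fold change was 0.48, with an SE of 0.18 and an edgeR adjusted p of 0.17, and 0.46 in the paired fit (adjusted p = 0.059). Without line A the paired fit gave 0.61 with an adjusted p of 0.0269 from edgeR's test. There HDAC7 was past both thresholds, as were 918 of 15764 genes in the higher direction. Without line C, D or E the paired fit gave 0.53, 0.39 and 0.35, with edgeR adjusted p of 0.116, 0.24 and 0.14. Line A also had the lowest summed fibroblast markers of the feeder-free libraries, 207 CPM against 353 to 1220 CPM, and the part of this in HDAC4 and HDAC7 was not tested.

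The ratio of these genes combines the opposite signs already given, so that a higher ratio in every line follows from them. HDAC7 to HDAC4 CPM was 1.95, 1.84, 1.77 and 1.6 in lines A, C, D and E on MEF, a narrow band. In feeder-free conditions it was 2.13, 3.86, 4.30 and 4.67, above every MEF value, with line A apart from the other three. The pair was singled out after its values were seen, and no test was made of it.

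**Figure D2:**
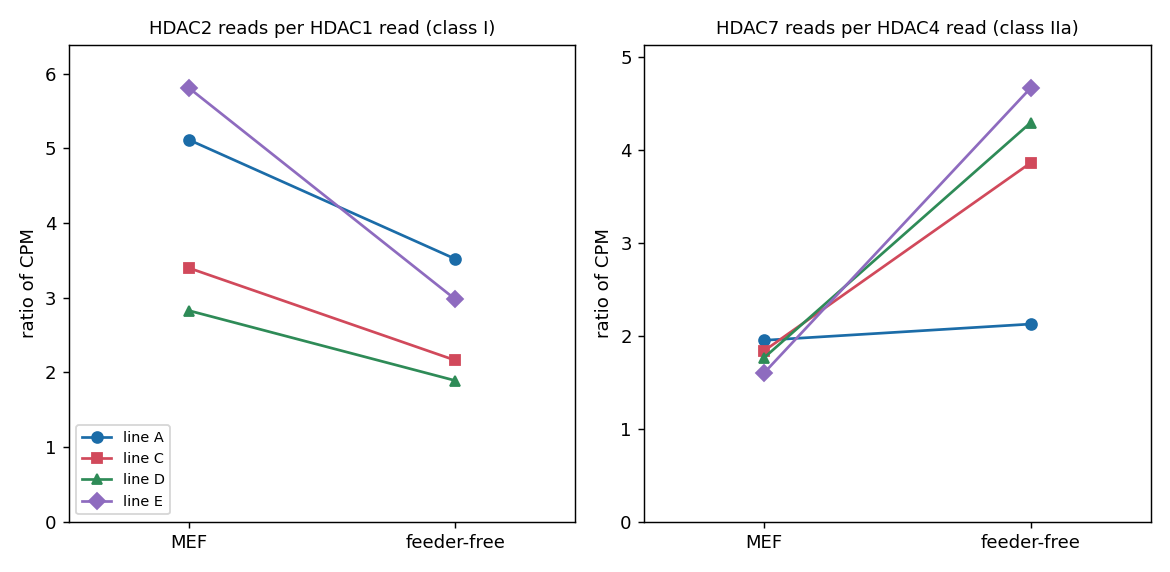
Ratio of HDAC2 to HDAC1 CPM (left) and of HDAC7 to HDAC4 CPM (right) on MEF and in feeder-free conditions, with a line joining the 2 libraries of each bESC line and both vertical axes from 0. The first ratio is lower without feeders in each of the 4 lines, with means of 4.29 and 2.64, and the second is 1.6 to 1.95 on MEF, 3.86 to 4.67 without feeders in lines C, D and E and 2.13 in line A.

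The other class IIa genes had lower values without feeders in all 4 lines, by small amounts. HDAC5, a corepressor best known from heart and muscle, lies on chromosome 19 from 43913854 to 43951129. HDAC5 had 129, 149, 158 and 145 CPM in lines A, C, D and E on MEF, and in feeder-free conditions 105, 124, 123 and 135 CPM, so that the conditions overlapped only through line A on MEF and line E without feeders. The log2 fold change was -0.26, with an SE of 0.12 and an edgeR adjusted p of 0.243, and -0.26 in the paired fit (adjusted p = 0.11). HDAC9, the largest locus of the family, with 988950 bases on chromosome 4 from 26685125 to 27674074, was among the members with few counts. The libraries on MEF had 17.3, 13.9, 19.6 and 20.6 CPM in lines A, C, D and E, and those in feeder-free conditions 16.0, 13.1, 16.7 and 13.3 CPM. The log2 ratio was -0.63 in line E and between -0.23 and -0.08 in the other lines. Its log2 fold change was -0.27, with an SE of 0.17 and an edgeR adjusted p of 0.399, and the 95% interval of the fold reached from 0.636 to 1.08. HDAC4, HDAC5, HDAC9 and the class IV gene HDAC11 each overlap an uncharacterized annotated gene, and the strand setting of the counting is not given in the sources used here.

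Among the class IIb genes, HDAC6, the deacetylase of tubulin and cortactin, had less signal without feeders in all 4 lines. HDAC6 lies on chromosome X from 86915161 to 86934092. MEF cultures had 59.0, 62.5, 63.3 and 57.6 CPM in lines A, C, D and E, a coefficient of variation of 4.47 percent and the smallest of any member in that condition. In feeder-free conditions it had 45.4, 57.8, 54.2 and 47.3 CPM, and line C alone reached into the MEF range. The log2 fold change was -0.24, with an SE of 0.11 and an edgeR adjusted p of 0.246, and -0.25 in the paired fit (adjusted p = 0.145).

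HDAC10, a polyamine deacetylase, lies on chromosome 5 from 119611409 to 119616824 and differed between lines more than between conditions. On MEF it had 24.1, 36.0, 37.1 and 25.0 CPM in lines A, C, D and E, and in feeder-free conditions 20.8, 35.3, 35.7 and 30.3 CPM. Lines C and D were the higher in both conditions and line A the lowest, while the means of the conditions were 30.6 ± 6.96 and 30.6 ± 6.92 CPM (SD, n = 4 each). The fitted fold was 0.999 with a 95% interval from 0.714 to 1.40 (adjusted p = 0.999 from edgeR's test), and its sign turned with the scaling.

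HDAC11, a class IV enzyme that removes long fatty acyl groups from lysine, lies on chromosome 22 from 58427520 to 58441990. It had 8.16, 9.50, 13.0 and 6.95 CPM in lines A, C, D and E on MEF, and 8.97, 8.29, 8.26 and 9.37 CPM in feeder-free conditions. The 4 lines spread widely on MEF, with a coefficient of variation of 27.7 percent, against 6.24 percent without feeders. Lines A and E had more and lines C and D less without feeders, and the log2 fold change was -0.11, with an SE of 0.21 and an edgeR adjusted p of 0.826. Without the MEF library of line D it was 0.087.

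**Figure D3:**
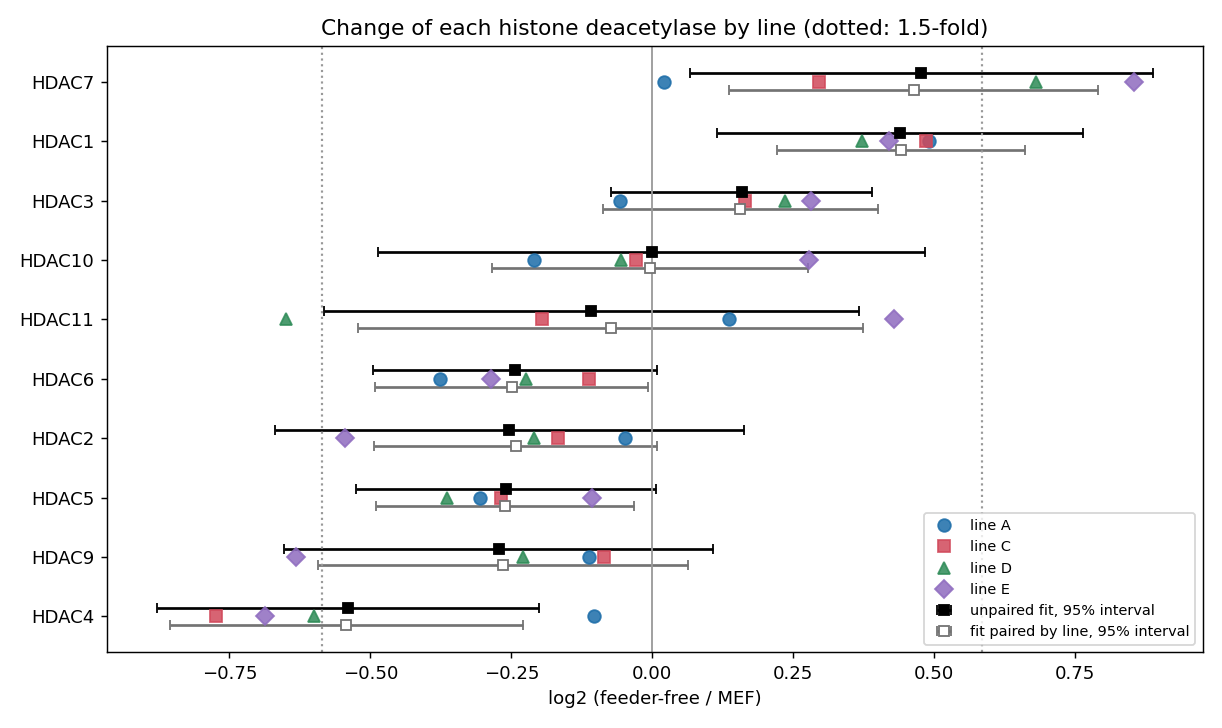
Log2 ratio of feeder-free to MEF (horizontal axis) of each histone deacetylase in lines A, C, D and E (coloured symbols), with the fold change of the unpaired fit (filled squares) and of the fit paired by line (open squares) and their 95% intervals; dotted lines mark 1.5-fold. HDAC7 and HDAC1 stand at the top with 0.48 and 0.44, HDAC4 at the bottom with -0.54, and no fitted value reaches a dotted line.

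Across the 10 genes, 7 had the same sign of the log2 ratio in all 4 lines, 2 of them upward (HDAC1 and HDAC7) and 5 downward (HDAC2, HDAC4, HDAC5, HDAC6 and HDAC9), where 40.9 percent of genes tested did so, 20.2 percent upward and 20.7 percent downward. In 2 of the 10 the conditions did not overlap, against 14.6 percent of genes tested. The median log2 fold change of the 10 was -0.18, beside 0.0060 over all genes tested, and 7 of the 10 values lay below 0. The sizes were ordinary for these libraries, with a median absolute log2 fold change of 0.26 for the deacetylases and 0.28 for all genes. By line, the median absolute log2 ratio of the 10 was 0.12 in A, 0.18 in C, 0.30 in D and 0.42 in E, beside 0.35, 0.25, 0.37 and 0.46 over all genes.

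The summed level of the 10 genes was 1171 ± 95.5 on MEF and 1113 ± 28.5 without feeders, in CPM (SD, n = 4 each). On MEF line E stood at 1313 CPM and the others at 1105 to 1141 CPM. Class I reads made up 68.7 ± 4.63 percent of this sum on MEF and 69.3 ± 3.69 percent without feeders (SD, n = 4 each). The class IIa share was 22.7 ± 3.09 percent and 22.6 ± 2.61 percent in the same order. The shares of the classes thus differed between conditions by less than their spread between lines, while HDAC1 and HDAC2, and HDAC7 and HDAC4, had opposite signs inside them.

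Differences between the lines were tested in the same paired fit, with condition held. None of the 10 genes passed an adjusted p under 0.05 in edgeR's test of the 3 line terms, against 11.8 percent of genes tested. In that test HDAC1, HDAC2 and HDAC10 had an unadjusted p under 0.05, a cutoff at which the share of all genes was not counted. HDAC10 came closest, with an adjusted p of 0.0647 from edgeR's test, followed by HDAC2 with 0.104. Without scaling beyond library size HDAC10 passed, with an adjusted p of 0.0478. Lines C and D had the higher HDAC1 and HDAC10 and the lower HDAC2 in both conditions, and lines A and E the reverse.

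The genes that work with or against the deacetylases were followed as lists of 98 genes, of which 95 could be tested. Of these, 1 was called higher and 4 lower without feeders by edgeR's test, or 5.26 percent, beside 1.73 percent of all genes tested, and in the paired fit 3 were called higher and 4 lower, or 7.37 percent, beside 10 percent. The median log2 fold change over the 95 was -0.04. Leaving out any of the 8 libraries except feeder-free line A left at most 1 of them called in the unpaired fit. In each of those fits at most 1 gene was called higher and 5 lower over all genes tested, so the loss was not particular to these lists.

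The corepressor lists were all drawn from complexes that carry class I enzymes. Each of their genes called in the unpaired fit was lower in all 4 lines, as were 20.7 percent of genes tested. GSE1, a subunit of CoREST-type complexes with HDAC1 and HDAC2, had 262, 276, 237 and 246 CPM in lines A, C, D and E on MEF, and 124, 99.3, 75.6 and 91.9 CPM in feeder-free conditions. The conditions lay far apart, at a log2 fold change of -1.38, with an SE of 0.16 and an edgeR adjusted p of 0.0233, although GSE1 overlaps uncharacterized genes in the annotation. GATAD2B, a NuRD scaffold, had 58.6 to 79.5 CPM on MEF and 38.9 to 43.9 CPM without feeders, a log2 fold change of -0.73 (adjusted p = 0.0331). TRERF1, which brings HDAC1 and HDAC2 into MiDAC, had 93.6 to 118 CPM on MEF and 57.4 to 72.4 CPM without feeders, a log2 fold change of -0.75 (adjusted p = 0.0331). In each of these 3 genes, picked because they were called, every feeder-free library lay below every MEF library, as in 8.36 percent of genes tested. In the SIN3 list of 17 genes none was called in the unpaired fit, and BRMS1 was called higher in the paired one, at a log2 fold change of 0.84 and an adjusted p of 0.0324 from edgeR's test. By list, 1 of 13 NuRD genes, 1 of 10 CoREST genes and 1 of 3 MiDAC genes was called, with median log2 fold changes of -0.21, -0.18 and -0.18. The NCoR list held 5 tested genes and no call in either fit, and GPS2, a subunit of the HDAC3 complex that overlaps EIF5A in the annotation, had the largest difference among them with 0.71 on the log2 scale and an edgeR adjusted p of 0.189.

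Among 10 histone acetyltransferases, which oppose the deacetylases, KAT6A was called lower. KAT6A, the MOZ acetyltransferase of histone H3, had 94.1, 109, 119 and 121 CPM in lines A, C, D and E on MEF, and 72.4, 80.5, 67.7 and 66.9 CPM in feeder-free conditions. The feeder-free values all lay below the MEF values, as in 8.36 percent of genes tested. KAT6A shares its locus with an uncharacterized gene, and the log2 fold change was -0.62, with an SE of 0.12 and an edgeR adjusted p of 0.0414. The median of the 10 acetyltransferases was -0.18, with 7 below 0. The BET proteins BRD2 and BRD3, which read acetylated histones, were not called, with log2 fold changes of -0.04 (adjusted p = 0.9) and -0.29 (adjusted p = 0.178).

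Of the kinases that phosphorylate class IIa enzymes, 11 were tested and CAMK1 was called higher. CAMK1, a calcium and calmodulin-dependent kinase, had 12.1, 11.4, 11.1 and 12.2 CPM in lines A, C, D and E on MEF, and 17.6, 17.9, 17.4 and 21.0 CPM in feeder-free conditions. The feeder-free values all lay above the MEF values, as in 6.21 percent of genes tested. The log2 fold change was 0.66, with an SE of 0.13 and an edgeR adjusted p of 0.047, but CAMK1 overlaps OGG1 in the annotation. Of the adaptor proteins of the YWHA family and SFN that hold phosphorylated class IIa enzymes in the cytoplasm, all 7 were tested and SFN alone was called, as higher in the paired fit at a log2 fold change of 1.39 (adjusted p = 0.0227) and higher in 3 of 4 lines, with 25.1 CPM in line D without feeders and 3.67 to 10.04 CPM in the other lines. No tested MEF2 gene was called, and MEF2D had the largest difference at a log2 fold change of -0.25 (adjusted p = 0.448).

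The NAD-dependent sirtuins, a separate deacetylase family often called class III, had 7 genes tested and none called in either fit, with a median log2 fold change of 0.02. SIRT7 had the largest difference among them, 0.32 (adjusted p = 0.554 from edgeR's test). None of the 4 genes of acetyl-CoA supply and none of the 5 of tubulin and cortactin acetylation was called. The largest differences in these lists were 0.42 for ACSS2 (adjusted p = 0.253) and 0.32 for TUBA1C (adjusted p = 0.835).

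**Figure D4:**
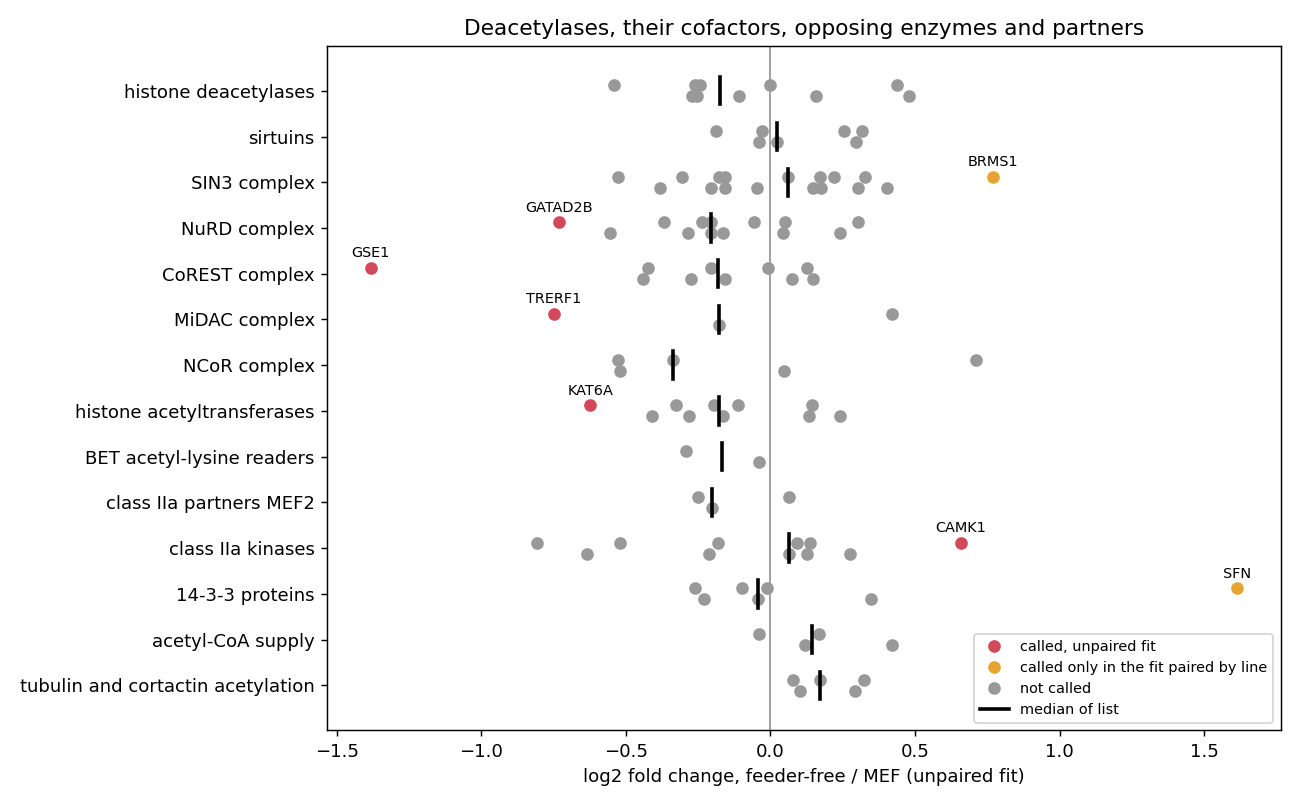
Log2 fold change of feeder-free to MEF in the unpaired fit (horizontal axis) for each tested gene of the deacetylases, their complexes, acetyltransferases, readers and partners (1 point per gene, 1 row per list), with a black bar at each list's median. The 4 genes called lower (GSE1, TRERF1, GATAD2B and KAT6A) stand to the left, and CAMK1, called higher, to the right, while all deacetylases lie between -0.54 and 0.48 without a call.

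The genes whose levels followed HDAC1 and HDAC4 most closely over the 8 libraries were found by the root mean square difference of mean-centred log2 CPM. For HDAC1, whose own root mean square deviation was 0.28, these were RPF2 at 0.067, AP1G2 at 0.079 and GCLM at 0.089. For HDAC4, with a deviation of 0.32, they were KLHL11 at 0.11, ZNF304 at 0.11 and KLF13 at 0.11. HDAC1 was thus followed more closely than HDAC4, and no test was made of these distances.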

How the data were processed

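Raw counts per gene of 8 libraries were deposited by the authors, made by Trimmomatic, STAR alignment to ARS-UCD2.0, removal of optical duplicates (Picard) and of low mapping quality (samtools), and featureCounts (Subread 1.6.2 in the submitters' processing notes). They also removed reads of a pure MEF sample, which was not analysed here, and the paper gives the purpose as normalizing the counts of cultures on MEF. RNA came from RNeasy kits in the methods and from Trizol in the sample records.

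The table lists 32640 genes, 3 of them without values. Counts were tested with edgeR 4.0.16 in R 4.3.3 (glmQLFit, glmQLFTest) after filterByExpr and TMM, with condition as the sole term and p-values adjusted (Benjamini-Hochberg) over 15744 genes; standard errors and 95% intervals (per gene, unadjusted) came from the F statistic. Log2 CPM used a prior count of 2. The alternatives were other scalings and filters, the likelihood ratio test, DESeq2 1.42.0, limma-voom (limma 3.58.1), other fold thresholds, left-out libraries or lines, and the line as a replicate block. The libraries are paired because every line was grown both ways: deviations from the condition means correlated at 0.421 to 0.664 within a line and at -0.523 to 0.249 between lines. Each line counts as a biological replicate, and no 2 libraries of a condition were alike (smallest chi-square per degree of freedom 34.3 over 12 pairs). The unpaired and paired edgeR quasi-likelihood fits were tested on simulated counts, and the other alternatives were not.

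The members, the gene lists and the tests were chosen with earlier results of these data known. Named were the 10 deacetylases, every list gene called in either fit or, in a list without a call, the gene with the largest absolute log2 fold change, and the 3 closest genes of each deacetylase with an adjusted p under 0.05 in either fit. Coordinates came from the RefSeq table of ARS-UCD2.0, which matched all 10. Since transcript lengths were not used here, ratios and shares between genes are of reads, were compared across libraries alone and do not rank the genes by level. No sequences are shown. Some list genes are not reported here and were left out of the lists.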

Additional observations from a re-analysis of the deposited data

Results flagged for a closer look

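Of 36 groups of 4 libraries examined for a value far from the other three, 2 held one, where chance gives about 1.8. Line D without feeders was sequenced to 102351560 counts, where lines A, C and E without feeders had 49671478 to 51320214. The same library had the highest summed pluripotent cell markers without feeders, 5299 CPM, against 4678 to 4730 CPM. No level of a histone deacetylase was far from the others in either condition by this measure.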

How the results depend on the processing

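No histone deacetylase was called in either direction under any setting with the full 8 libraries and a fold change threshold, nor without any single library in the unpaired fit. Those left-out fits say little about the deacetylases. Except without feeder-free line A (259 higher and 231 lower), each called at most 1 gene higher and 5 lower over all genes. With the replicate block and no fold threshold, 1 was called higher (HDAC1) and 1 lower (HDAC4). DESeq2 gave these genes adjusted p of 0.0448 and 0.0241, both short of 1.5-fold. Over all fits with a library or line left out, 0 to 1 was called higher and 0 to 1 lower, the calls being HDAC7 and HDAC4 in the paired fit without line A. HDAC10, at a log2 fold change of -0.00097, turned positive with RLE size factors (0.012), no scaling (0.033), no filter (0.023), at least 10 counts in every library (0.0081) and DESeq2 (0.012), and in the paired fit without scaling (0.036) or with RLE (0.0069). With a library or line left out it ranged from -0.10 to 0.14, and HDAC11 from -0.23 to 0.12. The other 8 kept their direction throughout. For the difference between lines, 1 deacetylase passed without scaling.

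Over all genes, 114 were called higher and 158 lower. No filter gave 73 and 97, at least 10 counts in every library 199 higher, no scaling 91 lower, DESeq2 695 and 516, the likelihood ratio test 448 and 389, and a 2-fold threshold 70 and 48. The replicate block gave 869 and 713, or 1207 and 1279 with no fold threshold, 1013 and 595 without scaling and 910 and 676 with RLE size factors. Leaving out a library from the unpaired fit gave 0 to 259 higher and 0 to 231 lower. Leaving out a line from the paired fit gave 376 to 918 higher and 366 to 733 lower. Of the cofactor and partner genes, 1 was called higher and 4 lower. No filter gave 0 and 3, DESeq2 2 higher, a 2-fold threshold 0 and 1, the replicate block 3 higher, also without scaling and with RLE, and with no fold threshold 3 and 14. For these genes a library left out of the unpaired fit gave 0 to 1 higher and 0 to 5 lower. A line left out of the paired fit gave 0 to 2 higher and 3 to 6 lower. Levels and class shares per transcript length were not run. Paired fits with another scaling or no fold threshold were chosen after seeing the data. The filters change the number of genes tested by design, and no cause was tested for the remaining differences.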
